A study of Homo sapiens with 3 samples.

Results

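The Hippo pathway genes described here are 10 human genes, chosen by their Ensembl identifiers from the 24916 genes measured, and all 10 had a value on every array. They are the coactivators YAP1 (ENSG00000137693) and WWTR1 (ENSG00000018408), their DNA-binding partners TEAD1 (ENSG00000187079) and TEAD4 (ENSG00000197905), the inhibitory kinases LATS1 (ENSG00000131023) and LATS2 (ENSG00000150457), the upstream inhibitor NF2 (ENSG00000186575), and the target genes CCN1 (ENSG00000142871), CCN2 (ENSG00000118523) and ANKRD1 (ENSG00000148677). CCN1 was formerly called CYR61, and CCN2 CTGF. The rule that picks them names identifiers and uses no measured value, although the list was drawn up with earlier results of these data known. Total RNA came from 3 cultures of MDA-MB-231-Luc cells made deficient in RRAS2, a small GTPase of the RAS family, by lentiviral transduction of the hairpin construct TRCN0000047025, and it was hybridised to Affymetrix arrays. This line was derived from a human breast cancer and is mesenchymal and triple-negative in character. The 3 arrays are biological replicates 1 to 3 of exponentially growing cells from 1 transduced pool, so 1 hairpin and 1 pool stand behind every value, and the spread between arrays does not cover differences between pools. Arrays of the control hairpin were not analysed here, so the values describe RRAS2-deficient cells, no effect of RRAS2 loss was computed and no test between groups was made.

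The Hippo pathway restrains growth by keeping a pair of transcriptional coactivators, YAP (encoded by YAP1) and TAZ (encoded by WWTR1), out of the nucleus. Merlin, the product of NF2, promotes activation of the LATS kinases, which phosphorylate YAP and TAZ so that they are held in the cytoplasm or degraded. When the kinases are inactive, YAP and TAZ bind TEAD factors on DNA and switch on genes such as CCN1, CCN2 and ANKRD1, whose mRNA levels are widely used as readouts of YAP-TAZ activity. LATS2 is itself a known YAP-TAZ target, part of a negative feedback loop. MDA-MB-231 cells are known for an inactivating NF2 mutation and for active YAP and TAZ. Arrays measure mRNA, and neither the phosphorylation nor the location of YAP and TAZ can be read from them.

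The promoters of CCN2 and ANKRD1 are printed because these genes are established TEAD targets and gave some of the highest signals of all genes. Both were highest in replicate 3, as were 8 of the 10 genes in all, including genes of every other role. Replicate 3 was also highest for 35.2% of all genes and for 43.3% of the 25% with the highest mean level. No promoter entry was found for CCN1, the other target gene. Sequences run from 250 bases before to 50 bases after the annotated start and are from RefSeq, build GRCh38.p14. The CCN2 promoter lies at chr6:131951323-131951622 and the ANKRD1 promoter at chr10:90921038-90921337, both on the minus strand, and both are written 5′ to 3′ along the gene. Capitals mark matches to GGAATG, the core letters of a TEAD binding motif, searched on both strands. They also mark TGANTCA, a loose form of the AP-1 core TGA(C/G)TCA that allows any middle letter. TGANTCA is its own reverse complement.
CCN2: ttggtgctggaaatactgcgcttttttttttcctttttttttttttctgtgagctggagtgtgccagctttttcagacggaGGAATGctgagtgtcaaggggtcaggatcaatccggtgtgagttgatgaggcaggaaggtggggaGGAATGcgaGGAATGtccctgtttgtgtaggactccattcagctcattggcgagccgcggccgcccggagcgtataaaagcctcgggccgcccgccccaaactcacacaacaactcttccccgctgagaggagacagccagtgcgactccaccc
ANKRD1: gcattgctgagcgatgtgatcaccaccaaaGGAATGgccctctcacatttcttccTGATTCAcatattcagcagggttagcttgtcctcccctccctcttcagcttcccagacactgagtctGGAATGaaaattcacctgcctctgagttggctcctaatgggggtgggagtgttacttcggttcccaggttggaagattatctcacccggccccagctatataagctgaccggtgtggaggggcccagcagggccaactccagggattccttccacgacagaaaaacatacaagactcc

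The CCN2 promoter held 3 matches to GGAATG, which began 169, 104 and 95 bases before the start. The ANKRD1 promoter held 2, which began 220 and 128 bases before the start, and 1 match to TGANTCA, written TGATTCA, which began 195 bases before it. No matches overlapped. Of 35116 promoter windows of the same length in the RefSeq table, 14.03% held GGAATG at least once, 1.37% at least 2 times and 0.128% at least 3 times, and 7.71% held TGANTCA. Promoter entries were found for 7 of the 10 genes, all but TEAD1, TEAD4 and CCN1, and these 7 had 10 entries in all. Of the 7 genes, 4 (CCN2, ANKRD1, YAP1 and LATS2) held GGAATG. This counts genes, some with more than 1 entry, while the shares above count single windows. The single match of YAP1 began 162 bases before the start, and that of LATS2 began at base 10 of the transcribed part. LATS1 held TGANTCA once, as TGAATCA, in 1 of its entries. Neither this match nor that of ANKRD1 has the C or G of the AP-1 core in the middle. These matches describe letters in a window, and binding was not measured.

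All 10 genes gave signals in the upper part of every array. The deposited values were read as log2 units of RMA, which their table does not state, and every fold rests on that reading. Each of the 10 lay above the array's median on all 3 arrays, where 48.6% of all genes did so. Of the 10, 9 also lay above the 75th percentile on all 3 arrays, against 23.9% of all genes, and the exception was NF2. The median is a dividing line and not a measured background. Array signals depend on the probes of each gene, so percentile positions describe where a signal lay on its array and do not rank the mRNA abundance of one gene against another. The cells were measured in bulk, so fewer cells with a transcript and less transcript per cell cannot be told apart. The level of RRAS2 and the markers of the cell line were not analysed here, because only the 10 member identifiers are paired with symbols in the sources used.

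**Figure D1:**
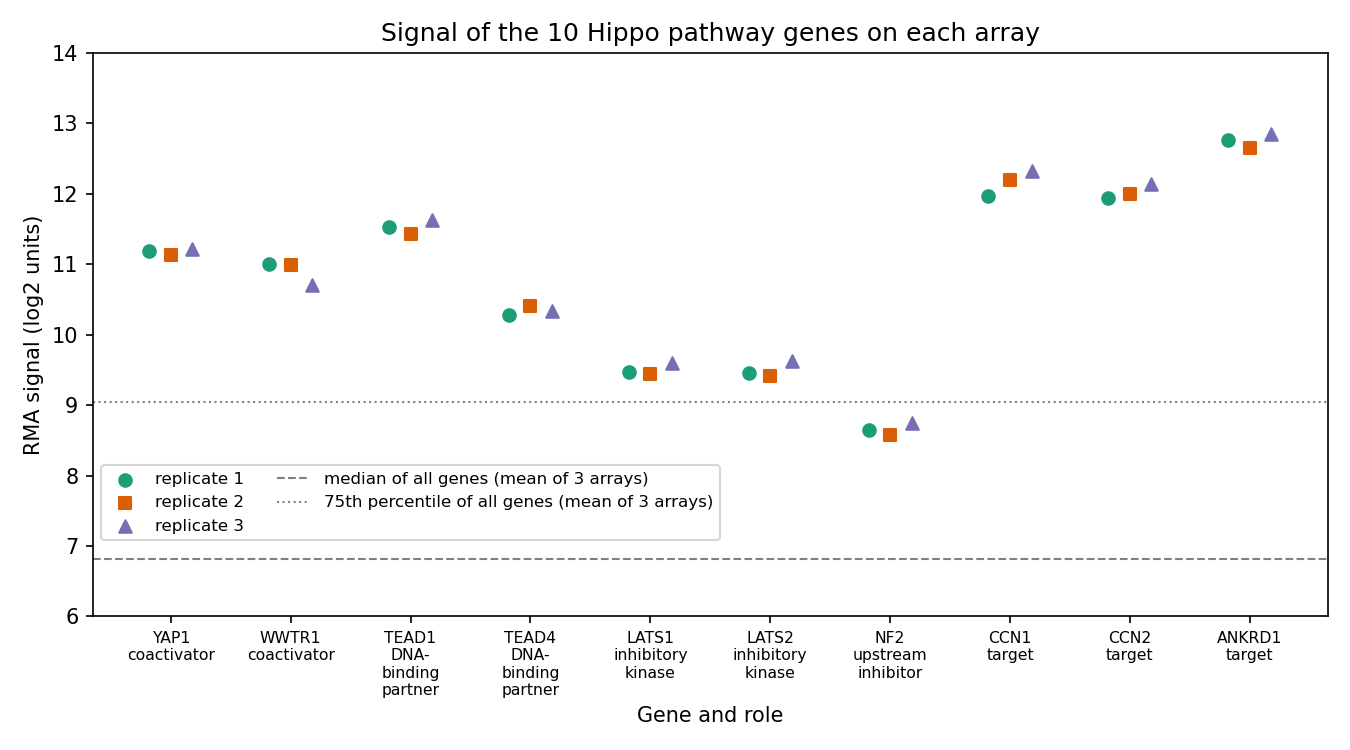
RMA signal in log2 units (vertical axis) of each of the 10 genes (horizontal axis, with role) on the 3 arrays, 1 point per array. The dashed and dotted lines are the median and the 75th percentile of all 24916 genes, averaged over the 3 arrays, and NF2 is the gene between them.

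The coactivators YAP1 and WWTR1 differed in how closely their replicates lay together. The 3 YAP1 signals, in replicates 1, 2 and 3, were 11.19, 11.14 and 11.21, a mean of 11.18 ± 0.038 (SD, n = 3). The arrays lay within a 1.05-fold range, the narrowest of the 10 genes. WWTR1 was at 11.01 in replicate 1, 10.99 in replicate 2 and 10.71 in replicate 3, with a mean of 10.90 ± 0.167 (SD, n = 3). Replicates 1 and 2 lay close together and replicate 3 lay below both, and the whole range was 1.23-fold. With all genes divided by mean level into 10 bands of equal size, both fell in the highest band, which held 2491 genes. In it, 22.9% had a smaller SD than YAP1 and 93.1% a smaller SD than WWTR1. YAP1 was brighter than 93.9% to 94.4% of all genes on each array and WWTR1 brighter than 91.2% to 93.2%.

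TEAD1 and TEAD4, the transcription factors through which YAP and TAZ reach DNA, differed in which array was highest. TEAD1 was at 11.53, 11.43 and 11.63 in replicates 1, 2 and 3, a mean of 11.53 ± 0.102 (SD, n = 3) and a 1.15-fold range. Its highest value was in replicate 3 and its lowest in replicate 2. TEAD4 was at 10.27, 10.41 and 10.33 in the same order, a mean of 10.34 ± 0.067 (SD, n = 3) and a 1.10-fold range. TEAD4 was highest in replicate 2, the array on which TEAD1 was lowest. TEAD1 was brighter than 95.5% to 96.3% of genes on each array, and TEAD4 brighter than 87.8% to 88.8%.

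LATS1 and LATS2, the kinases that inactivate YAP and TAZ, had the same order of arrays. Of the 10 genes, 6 shared this order, as did 1662 of the 6229 genes in the 25% with the highest mean level. Replicate 2 minus replicate 1 was only -0.034 units for LATS1 and -0.036 for LATS2. LATS1 was at 9.47 in replicate 1, 9.44 in replicate 2 and 9.59 in replicate 3, a mean of 9.50 ± 0.082 (SD, n = 3). LATS2 was at 9.46, 9.42 and 9.63 in the same order, a mean of 9.50 ± 0.115 (SD, n = 3). For both genes replicates 1 and 2 lay close together and replicate 3 lay above them, with whole ranges of 1.11-fold for LATS1 and 1.16-fold for LATS2. NF2, which encodes merlin, a membrane-associated scaffold upstream of the kinases, followed the same order at 8.64, 8.58 and 8.75, a mean of 8.66 ± 0.089 (SD, n = 3) and a 1.13-fold range. Its signal lay above 69.6% to 71.6% of all genes. The LATS1 and LATS2 signals exceeded those of 79.1% to 81.2% of all genes.

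The target genes CCN1, CCN2 and ANKRD1 lay near the top of each array. CCN1 and CCN2 encode secreted matricellular proteins that bind integrins, and ANKRD1 encodes an ankyrin repeat protein best known from heart and skeletal muscle. ANKRD1 was at 12.77 in replicate 1, 12.65 in replicate 2 and 12.85 in replicate 3, a mean of 12.76 ± 0.105 (SD, n = 3), and 0.779% of all genes had a higher mean. On the single arrays, 189, 245 and 161 of the 24916 genes were brighter than ANKRD1, in the same order. CCN2 was at 11.93, 12.00 and 12.14, a mean of 12.02 ± 0.106 (SD, n = 3), and 2.35% of genes had a higher mean. The spread of CCN1 was the widest of the 10 genes, at 11.98 in replicate 1, 12.19 in replicate 2 and 12.32 in replicate 3, a mean of 12.16 ± 0.175 (SD, n = 3), and 1.95% of genes had a higher mean. Its 1.27-fold range compared with 1.15-fold for CCN2 and 1.16-fold for ANKRD1. Each target was highest in replicate 3, while the lowest array was replicate 1 for CCN1 and CCN2 and replicate 2 for ANKRD1.

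The replicates of each of the 10 genes lay within a 1.27-fold range. None of the 10 genes ranged over more than 0.5 log2 units between arrays, where 3.52% of all genes and 2.02% of the brightest 25% of genes, by mean level, did. This count of 0 is therefore near the background. CCN1 alone ranged over more than 0.3 units, and WWTR1 lay just below that limit. After quantile or cyclic loess normalisation 2 genes, CCN1 and WWTR1, passed it. The background at 0.3 units was 16.8% of all genes and 12.5% of the brightest 25%, so this count too is near it. The median SD of the 10 genes was 0.103, against 0.086 for all genes and 0.081 for the 6229 genes of the brightest 25%. This order rests on replicate 3: without it the medians were 0.046 for the 10 genes, 0.060 for all genes and 0.047 for the brightest 25%. Set against genes in the same band of mean level, the SD lay above the band's median for 6 of the 10 genes (WWTR1, TEAD1, LATS2, CCN1, CCN2 and ANKRD1) and below it for 4 (YAP1, TEAD4, LATS1 and NF2). In the highest band, 94.1% of genes had a smaller SD than CCN1, 75.5% than CCN2, 74.95% than ANKRD1 and 73.0% than TEAD1.

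**Figure D2:**
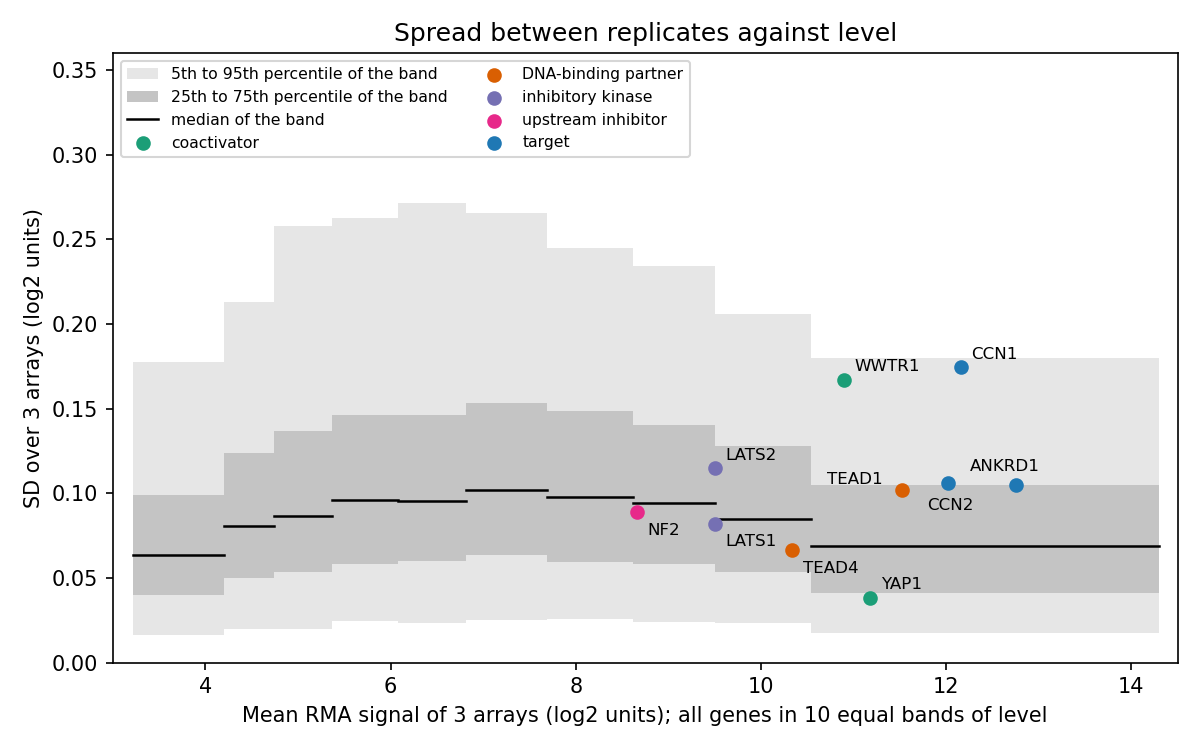
SD over the 3 arrays against mean signal, both in log2 units, for the 10 genes, coloured by role. Black lines are the median SD, and grey boxes the central ranges of SD, in 10 equal bands of level over all 24916 genes. WWTR1 and CCN1 lie well above the 75th percentile of their band and below the 95th, CCN2 lies just above the 75th, and YAP1 lies below the 25th.

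The small differences between arrays often ran the same way. Replicate 3 was the highest array for 8 of the 10 genes (YAP1, TEAD1, LATS1, LATS2, NF2, CCN1, CCN2 and ANKRD1). It was the highest for 35.2% of all genes and for 43.3% of the brightest 25%, the level range that holds 9 of the 10. In 6 of these 8 genes, all but CCN1 and CCN2, replicate 2 was the lowest array. Among the 2696 genes of the brightest 25% with replicate 3 highest, this held for 1662, or 61.6%, so 6 of 8 is near that share. Set against all 6229 genes of the brightest 25%, of which the same 1662 had this order, 6 of the 10 is a higher share. NF2, 1 of the 6, lies outside the brightest 25%, and the share over all genes was not computed. Replicate 3 lay farther from the middle value than any other array for 5 of the 10 genes, which is near the 41.7% of all genes and the 52.5% of the brightest 25% for which this held. The count was 8 with arrays centred on their medians, a setting for which the shares of other genes were not computed. Replicate 3 was the lowest array for 1 of the 10 genes, WWTR1, and for 38.5% of the brightest 25%. The order of arrays was looked at after the values were seen, and with arrays of 1 group it carries no test.

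The size of the shift was small. Over the 10 genes the median difference of replicate 3 from replicate 1 was 0.105 log2 units, against 0.017 over the brightest 25% of genes and -0.0096 over all genes. From replicate 2 it was 0.150 units, against 0.00070 over that brighter set. The 3 targets lay higher in replicate 3 than in replicate 1 by 0.35 units for CCN1, 0.21 for CCN2 and 0.085 for ANKRD1. Of the brighter set, 1.64% had a difference at least as high as that of CCN1, 8.54% as that of CCN2 and 31.1% as that of ANKRD1. WWTR1 went the other way, with replicate 3 lower than replicate 1 by a difference of -0.30 units, and 3.28% of the brighter set had a lower one. For YAP1 the same difference was 0.026 units, near the middle of the brighter set, of which 52.7% had a lower one. Replicate 3 stood apart from the other arrays among the brighter genes in general, and its part in the order seen here was not tested.

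**Figure D3:**
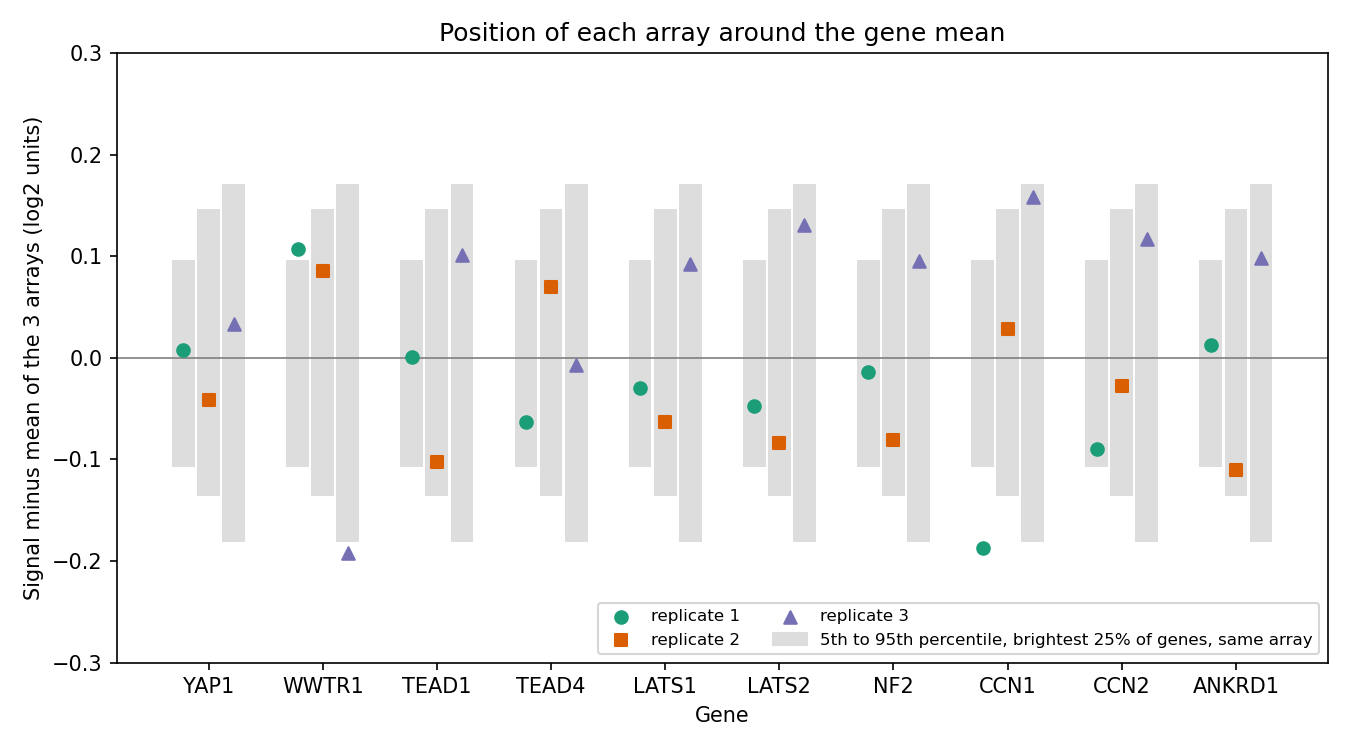
Signal of each array minus the gene's mean over the 3 arrays, in log2 units (vertical axis), for the 10 genes (horizontal axis). Grey bars give the 5th to 95th percentile of the same quantity over the 6229 genes of the brightest 25%, separately for each array. Replicate 3 (triangles) is the highest point for 8 genes and the lowest for WWTR1, and the points outside their grey bars belong to WWTR1 (replicates 1 and 3) and CCN1 (replicate 1).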

How the data were processed

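Total RNA of 3 cultures was hybridised to Affymetrix arrays. Per the submitters' processing notes, the authors used RMA and the affy package, which correct background, normalise arrays and summarise probes to 1 log2 value per gene. The deposited table was read as log2. The array model, probe definition and build were not given in the sources used here. RMA draws arrays towards a common distribution, so array-wide differences between them are reduced.

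From the deposited log2 values, the mean, SD and range over the 3 arrays, the highest, lowest and farthest array and percentile positions were computed for 24916 genes in Python 3.11.15 (numpy 2.4.6, pandas 2.3.3, matplotlib 3.10.9), with other normalisations from limma 3.58.1 in R 4.3.3. SDs were placed within 10 equal bands of mean level. The calculation was tested on simulated data, with a shift of 2 log2 units added to 200 genes on 1 array. That shift is far larger than the ranges of the 10 genes, so the test checks the code and not the counts given here. Named genes were the 10 members, and no genes of like pattern were named, since 3 arrays of 1 group give none. Members and lists were chosen with earlier results of these data known. The reference table held 59792 genes and 0 Ensembl identifiers, so a wider Hippo list and cell type markers were not used. Promoters were matched by symbol, and the names of the 10 members came with their identifiers. Depth is not defined for arrays, and the number of arrays limits the precision.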

Additional observations from a re-analysis of the deposited data

How the results depend on the processing

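All 10 genes lay above the array mean, and 9 above the 75th percentile, on all 3 arrays, and all 10 lay above the array median after cyclic loess. The other settings for this count (quantile and median-centred values, the 25th percentile, at least 2 of 3 arrays, and 1 array left out) could give no lower count by construction and show no stability. The count of genes with a range over 0.5 log2 units stayed at 0 under the 3 normalisations, and was 1 with a limit of 0.3. It could not rise with a limit of 1 unit or with 1 array left out. At a limit of 0.3, 2 genes passed after quantile and after cyclic loess normalisation and 1 gene after median centring, settings added after the data were seen. The median SD of the 10 genes was 0.103 as deposited and 0.105 to 0.107 under the 3 normalisations. With 1 array left out it went from 0.046 (without replicate 3) to 0.117 (without replicate 1). Replicate 3 was the farthest array for 5 genes as deposited, 8 with arrays centred on their medians, 6 after quantile normalisation and 5 after cyclic loess. The share of all genes was computed for the deposited values only. Replicate 3 was the highest array for the same 8 genes under the 3 normalisations, which were added for this count after the data were seen. It was higher than replicate 2 for 8 genes and higher than replicate 1 for 9, TEAD4 being the ninth. The highest array of WWTR1 was replicate 2 with arrays centred on their medians. The mean level of each gene moved by at most 0.0060 units under the normalisations. Centring cannot move it, and leaving out 1 of 3 arrays cannot move it by 1 SD. No paired analysis was possible because there was 1 group of arrays. The deposited values hold no background signal, so signal over background was not given.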
